A study of Mus musculus with 7 samples.

Results

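Imprinted genes are transcribed mainly from the allele inherited from one parent, and the 36 genes described here are such genes of the mouse, listed by symbol and taken from the 49315 gene identifiers counted. All 36 were found, and 34 had enough counts to be tested. Of the listed genes, 22 are known to be transcribed from the paternal allele and 10 from the maternal allele, and the other 4 (Ube3a, Grb10, Ddc and Gnas) have an allele that depends on the cell type. These assignments are textbook background, since the counts per gene do not tell the alleles apart. Most imprinted genes lie in domains in which paternally and maternally transcribed neighbours are governed by one differentially methylated region, and the DNA methylation of that region is kept through cell divisions by factors such as ZFP57, TRIM28 and DNMT1. Several of the genes code for regulators of growth and placental development, and others, such as Peg3, Ndn and Nnat, are known for high transcription in brain.

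RNA was sequenced from primary oligodendroglia that had been prepared from the brain of newborn mice by shake-off from mixed glial cultures and microglia depletion, and that had then spent 6 days in SATO medium with T3 and T4, a medium for differentiation. The 4 control libraries carried the Klf13-wt genotype. The 3 knockout libraries carried Klf13-ko, a deletion present in all tissues and cell types, so that the glia around the oligodendroglia in the mixed cultures lacked Klf13 as well. The labels call the libraries biological replicates without saying which animals or cultures they came from, and p-values measure the spread between these libraries. Between 24507471 and 59596479 counts fell on genes in a library. Klf13 itself had 10920, 11770, 12000 and 10670 normalized counts in wildtype libraries and 801.6, 876.4 and 961.2 in the knockouts, and the labels were thus borne out in all 7 libraries. Normalized counts are counts scaled by edgeR's TMM factors to the mean library size, and differences are given as log2 fold changes of knockout over control from edgeR's quasi-likelihood test over 18352 genes.

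At an adjusted p of at most 0.05, 10 of the 34 tested imprinted genes were higher in the knockout and 3 were lower, whereas 11.6% of all tested genes were higher and 12.2% lower. The 10 higher genes were Meg3, Rtl1, Rian, Mirg and Dio3 of the Dlk1-Dio3 domain together with Mest, Usp29, Ndn, Peg13 and Rasgrf1. The 3 lower genes were Dlk1, Sgce and Ddc. With a further condition, a log2 fold change of 1 or more in size, 6 imprinted genes were called higher (background 3.97%) and 0 were called lower by edgeR (background 3.08%). At an unadjusted p under 0.05, 1 gene (Igf2) met the condition for lower, and DESeq2 called this gene as well. The median log2 fold change was 0.32 over the imprinted genes and -0.004 over all tested genes. Normalized counts of the groups did not overlap in 16 of the 34 genes, or 47.1%, compared with 36.2% of all tested genes. With libraries scaled by total counts alone, 9 imprinted genes were higher and 1 lower (all genes 10.2% and 9.35%). Without controls 3 and 4, which are set apart below, 6 were higher and 1 lower, and 3 were called higher, where 6.26%, 7.91% and 2% of all tested genes were. Without knockout 2, 5 were higher and 0 lower, and the shares of all genes were 4.57% and 7.08%. The counts over imprinted genes and over all genes were thus both smaller in these fits.

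**Figure D1:**
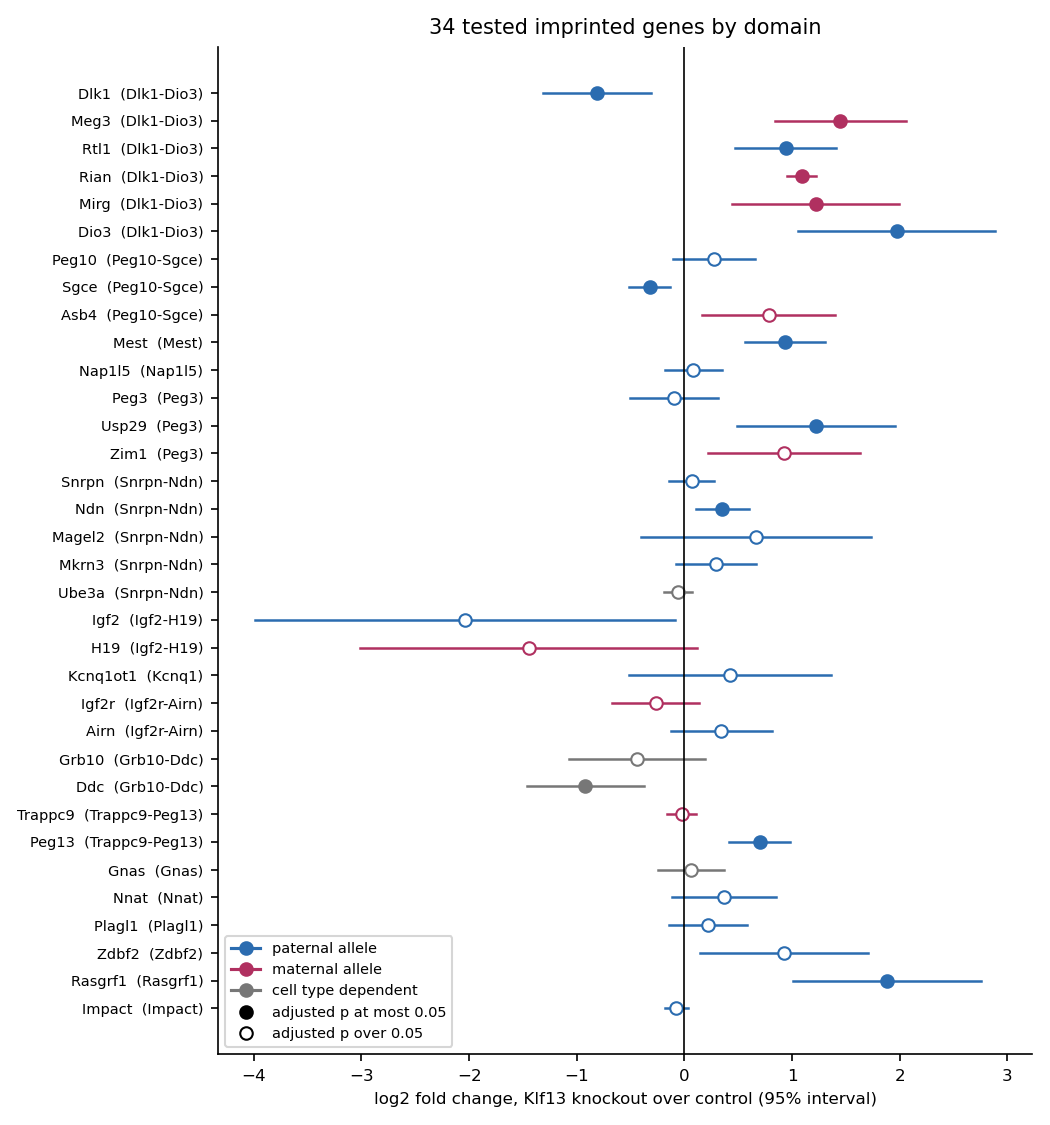
Log2 fold change of knockout over control (x axis) with its 95% interval for each of the 34 tested imprinted genes, coloured by the allele known to be transcribed, with filled points at an adjusted p of at most 0.05. The 6 genes of the Dlk1-Dio3 domain are all filled, Dlk1 lies to the left of 0 and the other 5 to the right, and the intervals of Igf2 and H19 are the widest drawn.

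Levels of the imprinted genes covered a wide range. Per kb of annotated exon, Nnat, a small membrane proteolipid of neural tissue, had the highest mean in the controls with 7183 normalized counts, above 99.1% of the tested genes. Snrpn, a spliceosomal protein, followed with 3486 per kb and Gnas, the stimulatory G protein alpha subunit, with 2052. At the other end, Rtl1 had 4.39, Mirg 4.20 and Magel2 1.61 per kb. The 2 untested genes, Phlda2 and Slc22a18, had 0 to 2 and 0 to 5 raw counts per library. They failed the filter on low counts, and no fold change is given for them. The spread between libraries of a group was given no test. The median standard deviation of log2 values was 0.30 for imprinted genes and 0.20 for all tested genes among the controls, and 0.21 and 0.16 among the knockouts.

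The make-up of the cultures differed between the groups and between libraries, as seen from marker genes. Mature oligodendrocyte markers summed to 1012000 to 1194000 normalized counts in the controls, as against 280100 to 315900 in the knockouts, and all 8 of them fell. Oligodendrocyte precursor markers summed to 89580 to 102300 in the controls, as against 109900 to 122100 in the knockouts, without overlap, and 2 of 6 (Ptprz1 and Vcan) were higher and 0 lower (0 at an unadjusted p under 0.05). Neuron markers summed to 41790 to 61720 in the controls and to 82900 to 105000 in the knockouts, and 11 of 15 tested were higher and 0 lower (1 at an unadjusted p under 0.05), with Slc17a7 below 9 normalized counts everywhere and not tested. Astrocyte markers summed to 125900 to 176700 and 239100 to 288600, and 9 of 11 were higher. Controls 3 and 4 stood apart with fibroblast and mural cell markers at 78320 and 62680, whereas the other controls had 23510 and 18250 and the knockouts 8165 to 19050. Of these markers 1 of 11 tested (Dcn) was lower, 7 were lower at an unadjusted p under 0.05, and the median log2 fold change of the list was -1.84. Microglia markers reached 104400 in control 3 and 22930 to 47920 elsewhere, and 0 of 11 passed edgeR's test, with 0 of 11 at an unadjusted p under 0.05 as well. Endothelial markers summed to 1646 to 3006 in the controls, as against 1311 to 1634 in the knockouts, with Cldn5 and Emcn at or near 0. Of these, 1 of 5 tested was lower, Cdh5, which had 116.1, 53.3, 294.9 and 288.3 in wildtype libraries and 21.7, 7.56 and 53.3 in the knockouts (log2 fold change -2.75, adjusted p = 0.0483), with controls 3 and 4 again the highest. Choroid plexus epithelium markers summed to 72.9 to 206.9 and 99.3 to 150.5, and 0 of 4 tested passed edgeR's test, with 0 at an unadjusted p under 0.05. In bulk RNA, a change in the number of cells of a type and a change in RNA per cell cannot be told apart. The part of these differences in the values below was not tested.

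Among the domains with several listed genes, the Dlk1-Dio3 domain on chromosome 12 (GRCm38, 109452823 to 110281097) was the one in which all of them passed the test. Its paternal chromosome transcribes the coding genes Dlk1, Rtl1 and Dio3, and its maternal chromosome transcribes the long noncoding RNAs Meg3, Rian and Mirg, of which Rian hosts snoRNAs and Mirg miRNAs. All 3 maternal RNAs rose. Of the paternal genes Rtl1 and Dio3 rose and Dlk1 fell, so the direction did not follow the allele. Meg3 and Dlk1 start 88.2 kb apart. The promoter windows below, from 250 bases before to 50 bases after the start, are shown because these neighbours on one strand moved in opposite directions (Dlk1 against Meg3) or together (Meg3 and Rian). They were taken from RefSeq on GRCm38.p6, plus strand, 5′ to 3′, and lie at chr12:109452573-109452872, chr12:109540746-109541045 and chr12:109603695-109603994. Capitals mark, on either strand, the GT box of Krüppel-like factors with the letters CACCC, read as GGGTG from the other strand, the GC box with the letters GGGCGG, read as CCGCCC from the other strand, and the hexamer bound by ZFP57 when methylated with the letters TGCCGC, read as GCGGCA from the other strand.
Dlk1: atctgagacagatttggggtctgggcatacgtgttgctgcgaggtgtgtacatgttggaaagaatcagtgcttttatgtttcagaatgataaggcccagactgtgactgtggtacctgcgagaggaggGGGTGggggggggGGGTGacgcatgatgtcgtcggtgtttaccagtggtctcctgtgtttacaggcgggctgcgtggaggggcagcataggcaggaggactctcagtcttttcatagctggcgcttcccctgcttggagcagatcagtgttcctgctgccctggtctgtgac
Meg3: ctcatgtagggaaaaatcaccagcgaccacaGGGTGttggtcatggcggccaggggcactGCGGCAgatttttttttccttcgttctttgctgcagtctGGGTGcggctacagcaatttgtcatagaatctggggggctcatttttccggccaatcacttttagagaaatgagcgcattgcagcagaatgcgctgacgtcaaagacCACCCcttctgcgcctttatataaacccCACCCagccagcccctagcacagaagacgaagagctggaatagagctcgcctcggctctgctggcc
Rian: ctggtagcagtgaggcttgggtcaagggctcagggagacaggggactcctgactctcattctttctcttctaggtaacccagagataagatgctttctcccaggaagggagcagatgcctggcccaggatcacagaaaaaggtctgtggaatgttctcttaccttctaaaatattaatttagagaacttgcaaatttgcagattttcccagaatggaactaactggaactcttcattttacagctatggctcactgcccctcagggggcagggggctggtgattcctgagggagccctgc
The Meg3 window held 4 GT boxes and 1 ZFP57 hexamer, the Dlk1 window 2 GT boxes, and the Rian window neither, and no GC box was found in the 3. No base belonged to more than one of these motifs. Among 32851 mouse windows of the same length, 57.5% held a GT box, 35.7% a GC box and 11.6% the hexamer. CpG dinucleotides numbered 9 in Dlk1, 13 in Meg3 and 0 in Rian, against a median of 7. The Dio3 window, not shown here, held 4 GC boxes, 2 GT boxes and 25 CpG dinucleotides. A match of letters is a description and no evidence of binding.

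Rian, the host of C/D box snoRNAs, had 1411, 1427, 1445 and 1364 normalized counts in the controls, compared with 2876, 3214 and 2907 in the knockouts. The controls lay within a few percent of each other and every knockout was at about double their level. The fitted difference on the log2 scale was 1.09 (standard error 0.06, adjusted p = 6.17e-05), the lowest adjusted p among the imprinted genes, and it stayed between 1.04 and 1.13 with each library left out in turn.

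Meg3, the RNA that heads the maternal transcripts, had 977.5, 1216, 724.7 and 606.6 in wildtype libraries and 1798, 2944 and 2452 in the knockouts. Controls and knockouts were well separated but, unlike those of Rian, spread within each group, with controls 1 and 2 above controls 3 and 4 and knockout 2 highest, the order of the summed neuron markers except that knockout 1 and 3 change places. Meg3 rose by 1.45 on the log2 scale (standard error 0.26, adjusted p = 0.00887) and passed with every library left out. Mirg, the host of a miRNA cluster, had 47.3, 30.2, 16 and 29.0 in the controls, as against 68.6, 61.2 and 83.0 in the knockouts. It was 1.22 higher on the log2 scale (standard error 0.33, adjusted p = 0.0359). This call did not hold with the replicate block (1.27, adjusted p = 0.0872), without control 2, control 4 or any 1 of the knockouts (adjusted p between 0.0722 and 0.108), or without controls 3 and 4 (adjusted p = 0.112). Rian and Meg3 kept a ratio of 1.17 to 2.25 in the controls, compared with 1.09 to 1.6 in the knockouts, so the ratios overlapped. Such ratios of neighbours were compared for 10 pairs by a two-sided exact permutation test on the log2 scale, in which 4 against 3 libraries cannot give a p below 0.0571, or 0.0952 after adjustment over the 10 pairs as found here. With this test, a ratio without overlap therefore could not pass the threshold here.

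Dlk1, a transmembrane protein of the Notch ligand type that is known to hold back differentiation of preadipocytes, had 344.3, 363.0, 436.6 and 224.6 in wildtype libraries and 195.0, 194.5 and 193.4 in the knockouts. The knockouts were nearly identical, and control 4 was close to them. Dlk1 fell by 0.81 on the log2 scale (standard error 0.22, adjusted p = 0.0321). Dlk1 did not pass without control 1, 2 or 3 or any 1 of the knockouts (adjusted p between 0.0510 and 0.0969), with limma voom (0.0528) or with total counts (0.0534). The ratio of Meg3 to Dlk1 counts, which does not depend on library scaling, was 1.66 to 3.35 in the controls, as against 9.22 to 15.1 in the knockouts without overlap (exact permutation p = 0.0571, the smallest possible).

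Dio3, the deiodinase that inactivates the thyroid hormones T4 and T3, had 45.9, 60.3, 41.2 and 23.4 in the controls, compared with 149.9, 248.8 and 101.3 in the knockouts. Each knockout was above every control, with a wide spread among knockouts. Dio3 rose by 1.97 on the log2 scale (standard error 0.39, adjusted p = 0.0122), the highest of the 34 genes, and it was 1.64 without controls 3 and 4, where the adjusted p was 0.0588. Rtl1, a coding gene derived from a retrotransposon, had 29.7, 23.1, 25.2 and 33.7 in wildtype libraries and 54.2, 52.9 and 54.1 in the knockouts, and rose by 0.94 (standard error 0.20, adjusted p = 0.0157). Its adjusted p was 0.0514 to 0.0551 without any 1 of the knockouts and 0.0504 without controls 3 and 4. With the replicate block its log2 fold change was 1.06 (adjusted p = 0.0446), which is over the fold condition for a call. Of the exon bases of Rtl1, 8.12% are shared with miRNA genes on the opposite strand, and of those of Meg3 6.79% with Gm26906, and the strand setting of the counting was not given in the sources used here.

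**Figure D2:**
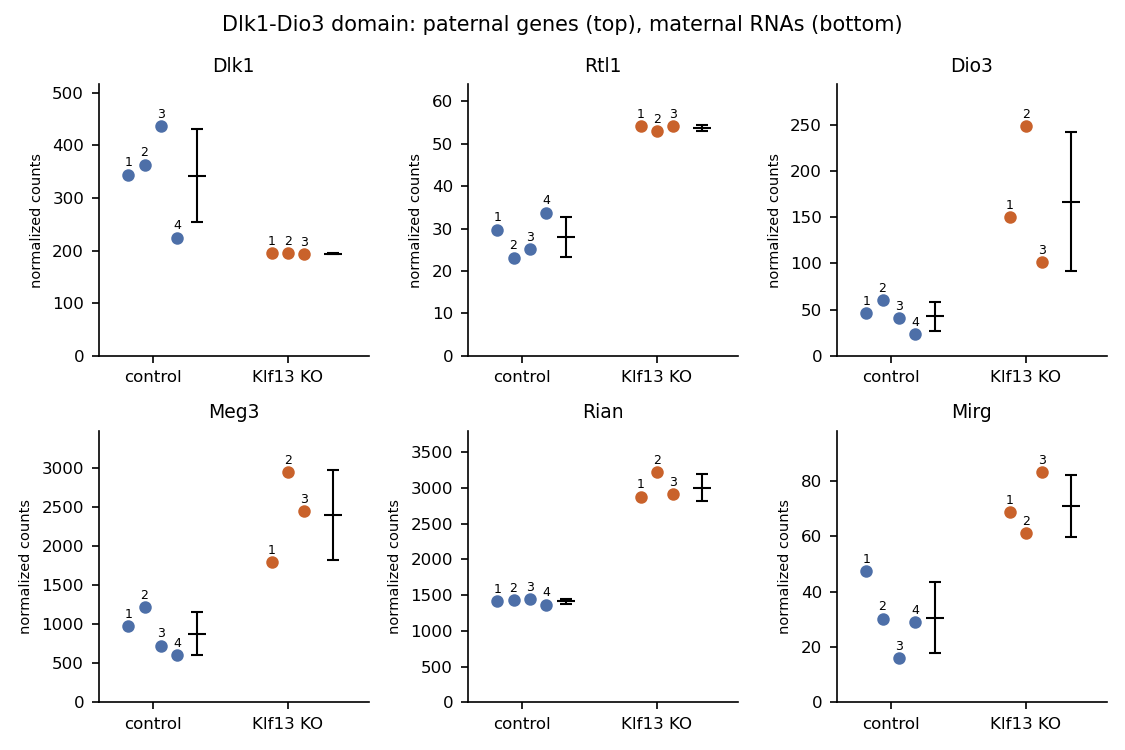
Normalized counts (y axis, linear from 0) of the 6 genes of the Dlk1-Dio3 domain in 4 control and 3 Klf13 knockout libraries, with replicate numbers at the points and mean ± SD beside them. No gene overlaps between the groups, the 4 controls of Rian lie between 1364 and 1445, and the 3 knockouts of Dlk1 between 193.4 and 195.0.

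In the Peg3 domain on chromosome 7 (6671269 to 6967219), Usp29 rose while its head-to-head neighbour Peg3 did not pass the test. Peg3, a zinc finger protein that is transcribed from the paternal allele and is abundant in brain, had 6110, 6625, 3884 and 5074 normalized counts in the controls, as against 5079, 5526 and 4626 in the knockouts. The groups overlapped, with a log2 fold change of -0.10 (95% interval -0.51 to 0.32, adjusted p = 0.743). Usp29, a ubiquitin-specific protease gene that is also paternal, starts 147 bases from Peg3 on the other strand. It had 379.4, 357.0, 155.5 and 196.6 in the controls, compared with 559.7, 710.1 and 629.9 in the knockouts. All knockouts were above all controls, and the controls formed a pair of higher and a pair of lower libraries, controls 3 and 4 being the lower pair also for Peg3. Usp29 rose by 1.22 on the log2 scale (standard error 0.31, adjusted p = 0.0294). It was 0.78 without controls 3 and 4, which passed (adjusted p = 0.0160) but was under the fold condition for a call, and Usp29 did not pass without control 4 or any 1 of the knockouts (adjusted p between 0.0601 and 0.0975) or without a filter on low counts (0.0611).

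The ratio of Usp29 to Peg3 counts was 0.0387 to 0.0621 in wildtype libraries and 0.110 to 0.136 in the knockouts. It differed by 1.38 on the log2 scale, without overlap (exact permutation p = 0.0571, the smallest possible). Zim1, a zinc finger gene of the same domain that is transcribed from the maternal allele, had 152.6, 159.9, 68.6 and 90.8 in the controls, as against 205.8, 257.1 and 207.2 in the knockouts. Its values did not overlap either, but the log2 fold change of 0.92 (standard error 0.30) had an adjusted p of 0.0627. Zim1 passed with DESeq2 (0.0198), limma voom (0.0328) and without control 2 (0.0460). Without controls 3 and 4 its log2 fold change was 0.52 (adjusted p = 0.0991). Usp29 shares 14.3% of its exon bases with Zim3, which lies on the opposite strand. The start region shared by Peg3 and Usp29 is shown because a single window covers both starts. The Peg3 window, on the minus strand at chr7:6730370-6730669 with the same motifs in capitals, reads:
Peg3: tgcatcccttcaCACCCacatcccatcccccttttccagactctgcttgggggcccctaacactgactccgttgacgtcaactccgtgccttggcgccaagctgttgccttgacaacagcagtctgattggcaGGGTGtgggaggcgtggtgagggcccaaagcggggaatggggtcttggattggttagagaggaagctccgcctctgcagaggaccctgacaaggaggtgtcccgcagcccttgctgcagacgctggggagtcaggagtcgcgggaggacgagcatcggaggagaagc
It held 2 GT boxes and 13 CpG dinucleotides, and neither a GC box nor the ZFP57 hexamer.

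In the Peg10-Sgce domain on chromosome 6 (4674350 to 5433022 with Asb4), Peg10 and Sgce are transcribed from the paternal allele and start 99 bases apart on opposite strands. Peg10, derived from a retrotransposon and needed for the placenta, had 3543, 3749, 2504 and 2539 in the controls, compared with 3835, 3994 and 3366 in the knockouts, with a log2 fold change of 0.28 (95% interval -0.10 to 0.65, adjusted p = 0.270). Sgce, the epsilon-sarcoglycan of the cell membrane, had 1840, 1878, 1869 and 2074 in wildtype libraries and 1701, 1484 and 1411 in the knockouts. Sgce fell by 0.32 on the log2 scale (standard error 0.08, adjusted p = 0.0281), a small change in which every knockout was below every control. Sgce did not pass with the replicate block (-0.29, adjusted p = 0.0600), with upper quartile factors (0.0636), total counts (0.0545), without controls 1, 2 or 4 or knockouts 2 or 3 (0.0511 to 0.106), and without controls 3 and 4 (0.108). The ratio of Peg10 to Sgce was 1.22 to 2.00 in the controls, as against 2.26 to 2.69 in the knockouts (exact permutation p = 0.0571, the smallest possible). Asb4, a maternal gene of the domain that codes for a subunit of ubiquitin ligases, had 35.1, 28.2, 24.0 and 21.5 in the controls, compared with 37.9, 59.8 and 40.4 in the knockouts, and its log2 fold change of 0.78 had an adjusted p of 0.0715.

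Further along chromosome 6 (30723547 to 30748465), Mest, a paternal gene for a hydrolase-like protein of the endoplasmic reticulum, had 2040, 2174, 1717 and 1377 in wildtype libraries and 3392, 3170 and 3907 in the knockouts. Mest rose by 0.93 on the log2 scale (standard error 0.16, adjusted p = 0.00695) and stayed past the threshold in every setting tried. Mest shares 23.1% of its exon bases with Copg2 on the opposite strand, and Copg2 itself, with 2860 ± 145 (SD, n = 4) in the controls, as against 2844 ± 51.9 (SD, n = 3) in the knockouts, had a log2 fold change of -0.01. Nap1l5, a paternal gene in the nucleosome assembly protein family, had 2517 to 2993 in the controls, compared with 2426 to 3285 in the knockouts (log2 fold change 0.08, adjusted p = 0.653).

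A further pair of neighbours lies on chromosome 15, where the paternal noncoding RNA Peg13 (72805600 to 72810324) is annotated within an intron of Trappc9, a gene for a subunit of a vesicle transport complex that is transcribed mainly from the maternal allele in brain. Peg13 had 2275, 2415, 2054 and 1708 in wildtype libraries and 3250, 3770 and 3273 in the knockouts. It rose by 0.70 (standard error 0.12, adjusted p = 0.00756) and stayed past the threshold in every setting tried. Trappc9 had 3000, 2871, 2784 and 2691 in the controls, as against 2697, 2919 and 2740 in the knockouts, with a log2 fold change of -0.03 and a 95% interval of -0.16 to 0.11. The ratio of Trappc9 to Peg13 was 1.19 to 1.58 in the controls, compared with 0.774 to 0.837 in the knockouts, without overlap (exact permutation p = 0.0571, the smallest possible). Both are annotated on the minus strand, so that reads of unspliced Trappc9 transcripts can be counted for Peg13.

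**Figure D3:**
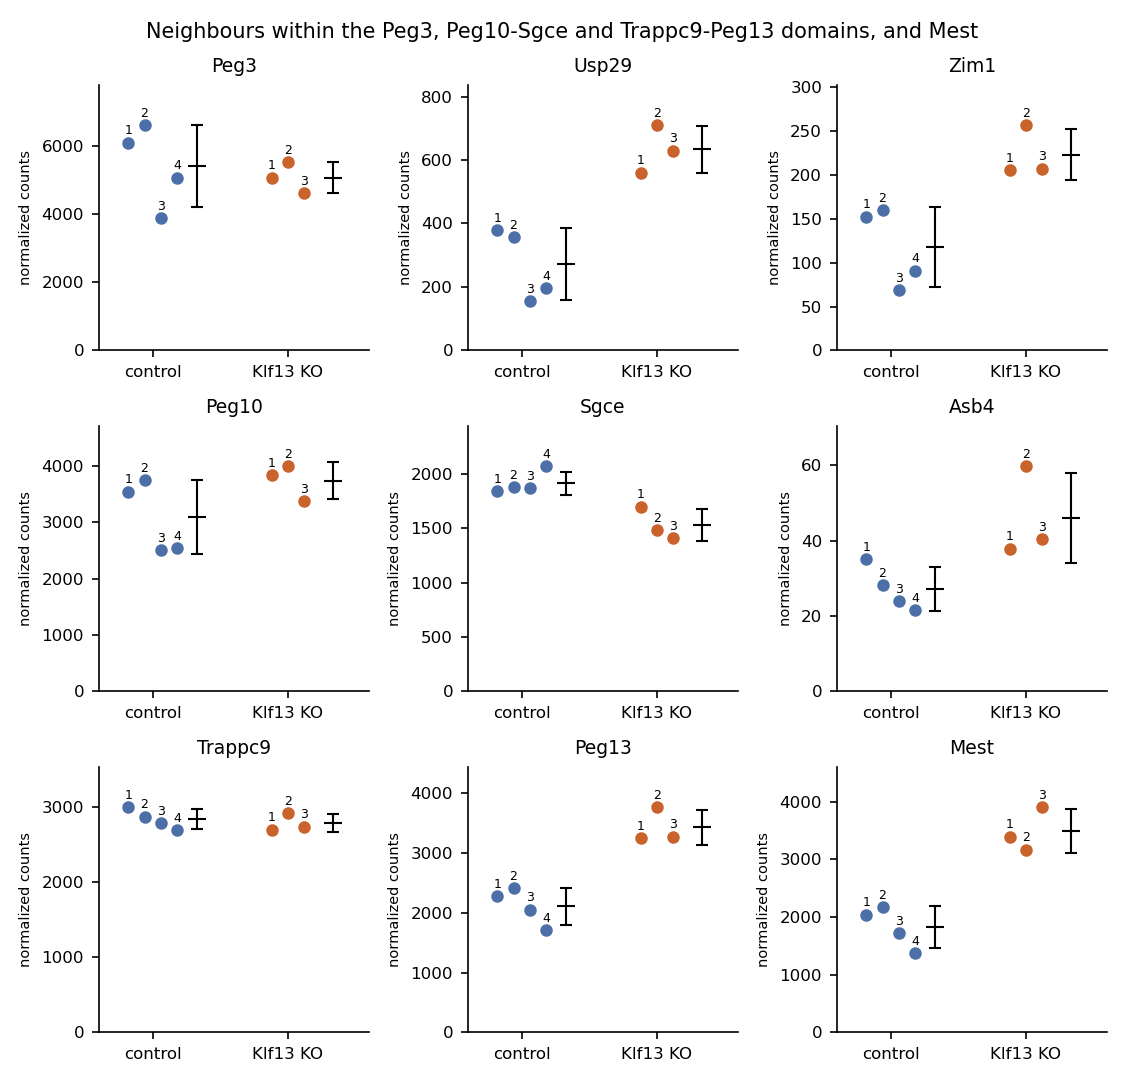
Normalized counts (y axis, linear from 0) of genes of the Peg3, Peg10-Sgce and Trappc9-Peg13 domains and of Mest in 4 control and 3 Klf13 knockout libraries, with replicate numbers at the points and mean ± SD beside them. Usp29, Zim1, Sgce, Asb4, Peg13 and Mest do not overlap between the groups, whereas Peg3, Peg10 and Trappc9 do.

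Rasgrf1, a paternal gene on chromosome 9 (89909908 to 90026977) for an exchange factor of Ras that is known from neurons, had 97.2, 118.7, 46.9 and 46.8 in wildtype libraries and 234.7, 374.6 and 244.5 in the knockouts. Every knockout was above every control and knockout 2 was the highest. It rose by 1.88 on the log2 scale (standard error 0.37, adjusted p = 0.0122), by 1.40 without controls 3 and 4 (adjusted p = 0.0228), and its adjusted p without knockout 2 was 0.05 after rounding, just over the threshold. Zdbf2, a paternal zinc finger gene of chromosome 1, had 171.5, 221.2, 78.9 and 109.5 in the controls, as against 241.9, 320.3 and 262.0 in the knockouts. Its groups did not overlap, but the log2 fold change of 0.92 (standard error 0.33) had an adjusted p of 0.0862. It passed with DESeq2 (0.0349), limma voom (0.0416) and without control 2 (0.0326).

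The Snrpn-Ndn domain, whose human counterpart is affected in Prader-Willi and Angelman syndromes, lies on chromosome 7 (59228750 to 62420139) within 5 Mb of Klf13. Ndn, a paternal gene of the MAGE family that restrains proliferation in neurons, had 3151, 3478, 2797 and 2929 in the controls, compared with 4039, 4370 and 3423 in the knockouts. Knockout 3 lay below control 2, and the log2 fold change of 0.35 (standard error 0.11) had an adjusted p of 0.0474. This borderline result did not pass in 5 of the 7 fits that left out a library, without controls 1, 3 or 4 or knockouts 1 or 2 (adjusted p between 0.0598 and 0.156), without controls 3 and 4 (0.227), and with DESeq2 size factors (0.0554), library sizes without 3 genes that collect ribosomal reads (0.0557), limma voom (0.0519), no filter on low counts (0.0522) and total counts (0.0779). The other 4 genes of the domain did not pass.

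Snrpn had 8024, 7844, 6580 and 7658 in wildtype libraries and 8013, 8455 and 7165 in the knockouts (log2 fold change 0.07, 95% interval -0.14 to 0.27). Mkrn3, a ring finger gene, had 252.5, 347.9, 269.8 and 257.4 in the controls, as against 321.4, 405.6 and 307.7 in the knockouts (0.29, 95% interval -0.08 to 0.67). Ube3a, the ubiquitin ligase that is maternal in neurons and biallelic in glia, had 6859, 6907, 6723 and 6368 in the controls, compared with 6364, 6182 and 6794 in the knockouts (-0.06, 95% interval -0.19 to 0.07). The intervals of Snrpn and Ube3a were narrow. Magel2, next to Ndn and of the same MAGE family, had only 4, 12, 5 and 7 raw counts in wildtype libraries and 10, 19 and 9 in the knockouts, and a difference was not detectable at this depth (0.66, 95% interval -0.40 to 1.73). Of the exon bases, 27.3% are shared in Ube3a with genes of the opposite strand such as Snhg14, and 27.3% in Snrpn with genes of the same strand such as Snurf, which had 0 counts in all libraries. Among 65 other tested genes within 5 Mb of Klf13, 6 were higher and 12 lower, while in the rest of chromosome 7 it was 154 and 136 of 1393.

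Igf2 and H19, neighbours on chromosome 7 (142575529 to 142666816) that share enhancers, had low values with a wide spread among controls. Igf2, the paternal growth factor, had 62.1, 54.3, 424.1 and 130.1 in the controls, as against 14.4, 44.7 and 57.9 in the knockouts. H19, the maternal noncoding RNA, had 98.6, 43.2, 333.8 and 220.0 in the controls, compared with 50.6, 47.4 and 91.4 in the knockouts. In both genes, controls 3 and 4 were the highest libraries, as they were for the fibroblast and mural cell markers, and control 2 lay below the highest knockout. The log2 fold changes were -2.04 (standard error 0.83, adjusted p = 0.122) for Igf2 and -1.45 (standard error 0.67, adjusted p = 0.165) for H19. Without controls 3 and 4 these values were -0.51 and -0.14. DESeq2 called Igf2 (adjusted p = 0.0220), and H19 passed without control 2 (0.0470). The ratio of H19 to Igf2 overlapped between the groups, with 0.787 to 1.69 in wildtype libraries and 1.06 to 3.50 in the knockouts.

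**Figure D4:**
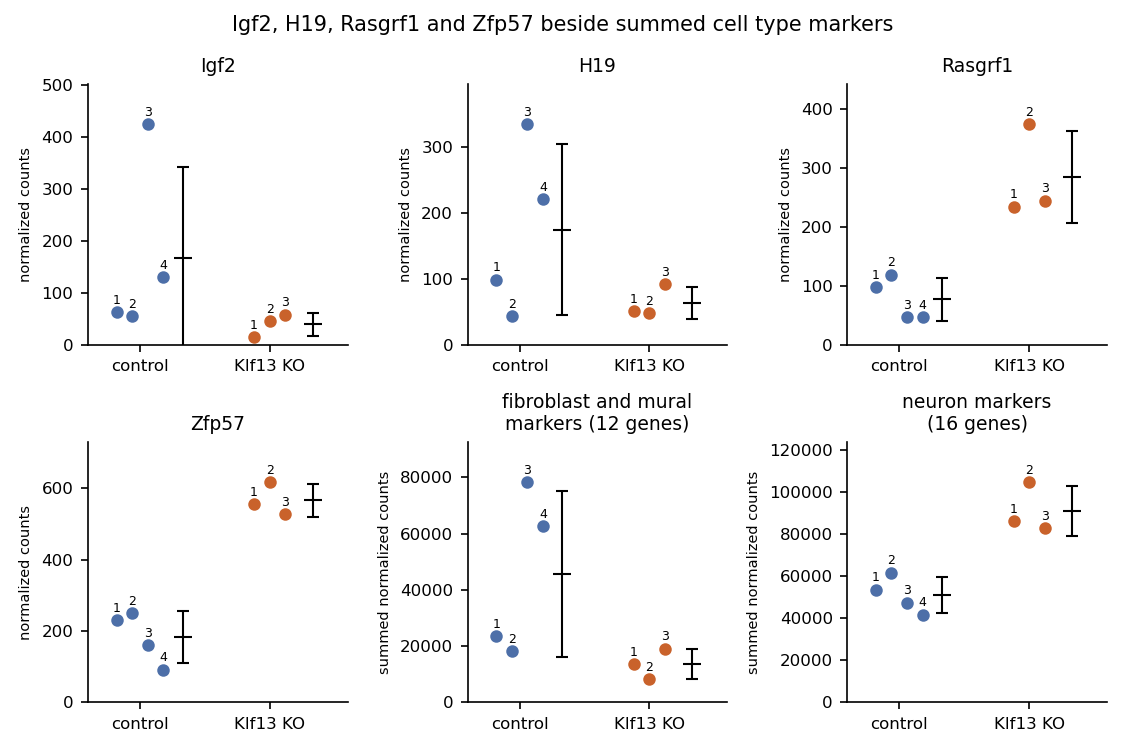
Normalized counts of Igf2, H19, Rasgrf1 and Zfp57, and summed normalized counts of 12 fibroblast and mural cell markers and 16 neuron markers (y axes, linear from 0), in 4 control and 3 Klf13 knockout libraries, with replicate numbers at the points and mean ± SD beside them (the lower arm for Igf2 controls is clipped at 0). Controls 3 and 4 are highest for Igf2, H19 and the fibroblast and mural cell markers, and are the lowest for Rasgrf1, Zfp57 and the neuron markers.

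Of the Grb10-Ddc domain on chromosome 11, Ddc (11814101 to 11898144), the decarboxylase that makes dopamine and serotonin, had 3413, 3208, 3459 and 5552 in the controls, as against 2566, 1673 and 1978 in the knockouts. All knockouts were below all controls, of which control 4 stood apart. Ddc fell by 0.92 (standard error 0.23, adjusted p = 0.0280). Ddc did not pass without knockout 2 or 3 (adjusted p of 0.0909 to 0.102), without controls 3 and 4 (0.0531) and without a filter on low counts (0.0791). Grb10, an adaptor that restrains insulin and growth factor receptors and is maternal in most tissues but paternal in neurons, had 656.2, 456.5, 835.6 and 906.1 in the controls, compared with 642.7, 377.4 and 559.8 in the knockouts. Its groups overlapped, and the log2 fold change was -0.44 (95% interval -1.08 to 0.19, adjusted p = 0.287).

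Igf2r, the maternal receptor that clears IGF2 from the cell surface, had 2920, 2641, 4078 and 3266 in wildtype libraries and 2439, 2359 and 3241 in the knockouts. Its log2 fold change of -0.27 did not pass (adjusted p = 0.315), but did with the replicate block (-0.25, adjusted p = 0.0423). Airn, the paternal antisense RNA of Igf2r, had 48.7 to 60.8 in the controls, as against 59.8 to 87.6 in the knockouts (0.34, adjusted p = 0.265). The ratio of Igf2r to Airn did not overlap between the groups, with 48.1 to 67.3 in the controls, compared with 37.0 to 39.5 in the knockouts (exact permutation p = 0.0571, the smallest possible). Kcnq1ot1, the paternal antisense RNA of the Kcnq1 domain, had 2872, 1562, 949.9 and 2019 in wildtype libraries and 2488, 1479 and 3474 in the knockouts (0.42, adjusted p = 0.501). These values were also split by a property of the libraries, without a test. The 4 libraries with over 10% of counts on Gm42418, Gm23935 and Lars2, genes that collect ribosomal reads, had 2019 to 3474, and the other 3 had 949.9 to 1562.

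Gnas was the only other of the 34 genes whose values did not overlap between these classes of libraries. It had 20010 to 22630 over that share and 24930 to 28440 under it. The share of all tested genes without overlap between the classes was not computed. It is therefore not known whether 2 of 34 is more than among other genes. Each class holds 2 controls, beside 2 knockouts over the share and 1 under it. The ratio of group means over and under that share was given no test, and under it rests on 1 knockout. On the log2 scale it was 1.06 and 1.16 for Rian, 1.86 and 2.29 for Dio3, and 0.71 and 0.75 for Peg13. For Mest it was 1.10 and 0.70, and for Dlk1 -0.55 and -1.04. Nap1l5, Peg3, Snrpn and Trappc9, which did not pass, changed direction between the classes. Gnas had log2 fold change 0.06 between the groups (95% interval -0.24 to 0.37), and 22.0% of its exon bases are shared with antisense genes such as Nespas. Nnat ranged from 11140 to 15770 in the controls, as against 12090 to 22010 in the knockouts (0.37, adjusted p = 0.243). Plagl1, a paternal zinc finger gene, ranged from 256.5 to 383.1 and from 335.8 to 422.7 (0.22, adjusted p = 0.359). Impact, a paternal regulator of translation, ranged from 2736 to 2879 and from 2583 to 2720, without overlap, but the log2 fold change of -0.07 had an adjusted p of 0.305.

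Sorted by the transcribed allele, 7 of 22 paternal genes were higher and 2 lower (8 and 3 at an unadjusted p under 0.05), with a median log2 fold change of 0.35, beside 11.6% higher and 12.2% lower over all tested genes. Of 8 tested maternal genes, 3 (Meg3, Rian and Mirg, which lie in one domain) were higher and 0 lower (5 and 0 at an unadjusted p under 0.05), with a median of 0.85. Of the 4 genes whose allele depends on the cell type, 0 were higher, also at an unadjusted p under 0.05, and 1 was lower, with a median of -0.25. Among the 10 higher genes, controls 1 and 2 were both above controls 3 and 4 in 8, compared with 57.2% of the 2122 higher genes overall and 9 of 15 tested neuron markers. Rian and Rtl1 were the exceptions.

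Genes of other imprinted loci and of imprint maintenance were taken from separate lists. Of 28 tested among 33 other imprinted genes, 3 were higher and 2 lower, with a median log2 fold change of 0.08. These counts are near or under the shares over all tested genes, 11.6% higher and 12.2% lower, and the 5 genes are given as single values. Begain, a postsynaptic scaffold gene 384.6 kb from Dlk1, had 172.8, 261.4, 145.2 and 88.9 in the controls, compared with 512.7, 806.3 and 408.2 in the knockouts and rose by 1.79 (adjusted p = 0.0149). Blcap, whose gene body encloses Nnat, rose from 1658 ± 89.1 (SD, n = 4) to 2679 ± 186 (SD, n = 3), which is 0.69 on the log2 scale (adjusted p = 0.000856). Ppp1r9a, an actin-binding neurabin gene 142.4 kb from Peg10, rose from 2504 ± 291 to 3873 ± 149 (0.63, adjusted p = 0.00474). Tssc4 and Tspan32, which lie 141.1 and 192.5 kb from Kcnq1ot1, fell by 1.47 (adjusted p = 0.00953) and 0.80 (adjusted p = 0.0413). Without knockout 2 the adjusted p of Begain was 0.0572, and without controls 3 and 4 it was 0.0505. Tspan32 did not pass with the replicate block (adjusted p = 0.181), without any 1 of the 7 libraries (0.0637 to 0.138), and with DESeq2, upper quartile factors, total counts or no filter (0.0606 to 0.151).

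Of 13 tested imprint maintenance factors among 15, 2 were higher and 2 lower, beside 11.6% higher and 12.2% lower over all tested genes. These counts are near those shares, and the genes are given as single values. Zfp57, the zinc finger protein that binds methylated imprinting control regions, had 230.9, 250.4, 160.0 and 91.7 normalized counts in wildtype libraries and 556.1, 617.9 and 527.0 in the knockouts. The groups were far apart, and within each group the libraries had the order of their neuron marker sums. Zfp57 rose by 1.63 (standard error 0.31, adjusted p = 0.0106) and passed with every library left out. Dnmt3b, a de novo DNA methyltransferase, rose by 0.53 (adjusted p = 0.0272), and Dnmt3a, its relative, fell by 0.29 (adjusted p = 0.0325). Uhrf1, which guides DNMT1 to hemimethylated DNA and is high in dividing cells, fell from 1232 ± 206 (SD, n = 4) to 750.5 ± 71.3 (SD, n = 3), or by 0.71 on the log2 scale (adjusted p = 0.0124). Dnmt3b did not pass with the replicate block (0.0952), no filter (0.0935), without controls 3 and 4 (0.125) and without any 1 library but control 1 (0.0532 to 0.0941). Dnmt3a did not pass with total counts (0.164), without controls 3 and 4 (0.0527) and without control 2 or knockouts 1 or 3 (0.0551 to 0.109), and Uhrf1 did not pass without knockouts 1 or 2 (0.0507 to 0.0536). Dnmt1 (-0.15, adjusted p = 0.219), Trim28 (0.14, adjusted p = 0.317) and Zfp445 (0.11, adjusted p = 0.303) did not pass.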

How the data were processed

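RNA of 7 libraries (4 control, 3 knockout) was prepared by the authors with the NEBNext Ultra II kit and sequenced in paired ends. The deposited values are raw counts per gene made by the authors with Trimmomatic 0.36, STAR 2.5.2b and featureCounts of Subread 1.5.2 on GRCm38, as the submitters' processing notes and the study's methods give them. The strand setting and the annotation release are not given in the sources used here. Of 49315 identifiers, 49056 were found in GENCODE M21, of which 44858 had the same start and end, and 48970 had a symbol. Exon overlaps were computed from the exons listed beside the counts.

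The test was that of edgeR 4.0.16 in R 4.3.3 (filterByExpr, TMM, robust quasi-likelihood test, two-sided, group as the only term, Benjamini-Hochberg adjustment over 18352 genes), after testing on simulated data. A gene passed the test up to an adjusted p of 0.05, and was called if its log2 fold change was also 1 or more in size. A count of 0 allows up to 3 counts, 5.03e-06 to 1.22e-05 percent of a library, which covers counting error only.

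The imprinted genes, the lists and the rule for naming genes were chosen with earlier results of these data known. The rule accounts for every listed gene, gives values per library for those that passed and for those of the Dlk1-Dio3, Peg10-Sgce, Peg3, Snrpn-Ndn and Igf2-H19 domains, and names up to 6 passing genes of the other imprinted and maintenance lists. Marker lists are given as sums.

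Alternatives were DESeq2 1.42.0, limma voom 3.58.1, other scalings and filters, leaving out each library, and, added after the data were seen, leaving out controls 3 and 4. Across 18352 genes, deviations from the group means of libraries with the same replicate number correlated at 0.113, 0.463 and 0.168, and those of other pairs at -0.529 to 0.197, so that the replicate number was also fitted as a block. Control 4 has no knockout with its number and so adds nothing to the group difference in the block fit. Genes are not independent replicates, and what a number stands for is not given in the sources used here.

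Promoter windows were matched by symbol for 24 of the 36 genes, with a start within 1000 bases of the gene start in the count files.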

Additional observations from a re-analysis of the deposited data

Results flagged for a closer look

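In 2 of the 34 tested imprinted genes, 1 control library lay farther from the others than Dixon's 95% limit for 4 samples. Chance flags about 1 in 20 groups, so that 2 of 34 is near what chance gives. Both were control 4. Its Sgce value was 2074 normalized counts, with a gap of 0.838 of the range to the next control. Its Ddc value was 5552, with a gap of 0.893. Both genes were lower in the knockouts, and without control 4 the values of the groups remained apart in both.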

How the results depend on the processing

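Among 10 alternatives (9 planned ones and 1 added later) and 7 fits that each left out 1 library, Rian, Meg3, Mest and Peg13 passed in all. Igf2 and Magel2 could not be tested with at least 10 counts in every library, nor Magel2 without control 2. With each library left out in turn, 5 to 11 imprinted genes were higher, 0 to 2 lower, 3 to 8 called higher and 0 to 2 called lower, while of all genes 4.57% to 10.1%, 6.58% to 11.1%, 1.8% to 4.44% and 2.09% to 3.17% were. Total counts gave 1 lower gene (all genes 9.35%), DESeq2 gave 1 called lower (3.53%), and leaving out controls 3 and 4 gave 6 higher, 1 lower and 3 called higher (6.26%, 7.91% and 2%). With the replicate block, 9 were higher, 3 lower, 6 called higher and 0 called lower (all genes 9.49%, 11.1%, 3.07% and 3.01%), with Rtl1 called in place of Mirg. Beside Mirg, Sgce, Igf2r, Tspan32 and Dnmt3b, none of the 34 imprinted genes and of the passing genes of the other imprinted and maintenance lists changed its side of the adjusted p threshold with the block.

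Values near 0 changed sign in 5 genes that passed in no setting. Trappc9 was at 0.012 with upper quartile factors and 0.020 with total counts, Snrpn at -0.013 without controls 3 and 4. With each library left out in turn, Trappc9 ranged from -0.061 to 0.017 (above 0 without control 1 or knockout 1, the latter 0.013), Peg3 from -0.23 to 0.015 (above 0 without control 2), Nap1l5 from -0.021 to 0.20 and Gnas from -0.076 to 0.16 (both below 0 without knockout 2). The cause was not tested. No alternative scaling moved the median of all genes by more than 0.045. Magel2, Phlda2 and Slc22a18 are limited by depth, and alleles cannot be read from these counts.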
